A study of Saccharomyces cerevisiae with 8 samples.

Results

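Transcript starts that were specific to mid-late meiosis, the stage called T2, are the subject here. A start was the 5′ end of a sequenced RNA molecule, and starts were counted in bins of 100 nt along each chromosome and strand as CPM, counts per 1000000 yeast molecules of the library. A bin was taken as specific to T2 when it reached 5 CPM in both T2 replicates and when its T2 mean was at least 3 times the mean of each other stage plus 1 CPM. By this rule 1813 of the 99030 bins that held at least 1 molecule were T2-specific, which is 1.83% of all bins and 25.5% of the 7113 bins at 5 CPM or more in both T2 replicates. The bins were thus chosen by their T2 levels relative to the other stages, and such levels are given as a description and were not tested. The other 5300 bins that reached 5 CPM in both T2 replicates serve as the comparison and are called the other T2 starts.

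The 8 libraries came from 4 stages, each with 2 replicates, of 1 diploid SK1 yeast strain, FW2795. All 4 stages shared its alleles: the early regulator IME1, tagged with 3HA, was under the copper-inducible CUP promoter (irt1::pCUP-3HA-IME1), NDT80 was under the GAL promoter (ndt80::pGAL-NDT80), and a fusion of GAL4 to the estrogen receptor was expressed from the GPD1 promoter (pGPD1-GAL4(848).ER). The strain also carried ho::LYS2 and lys2, ura3, leu2::hisG, his3::hisG and trp1::hisG as markers. T2 was a pool of cells after 7 to 9 h in sporulation medium (SPO) that had received 50 µM CuSO4 at 2 h and 1 µM β-estradiol at 6 h, so that NDT80 was induced. The pm stage was a pool of 0 to 2 h in SPO, before any induction. T1 was a pool of 3 to 6 h in SPO, after CuSO4 at 2 h. T3 was a pool taken between 15 min and 2 h after cells had been moved at 6 h to YPD, a rich medium, so it branched from T1 beside T2 and did not follow it. Each library therefore averaged over several time points. In such bulk samples a higher level in more cells and more RNA in each cell cannot be told apart. The stage labels could not be set against marker genes, since loci are known here by their position in the SK1 assembly alone.

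Budding yeast enters meiosis when starved diploid cells express Ime1, a transcription factor that turns on early genes for DNA replication and recombination. Ndt80 is the transcription factor that acts later, at the exit from pachytene, where it turns on the middle genes that drive the meiotic divisions and the building of spores. Middle genes can be transcribed from promoters that are silent in growing cells, and some meiotic start sites lie upstream or inside of genes that have another start at other stages. TIF-seq reads the 5′ end and the 3′ end of the same RNA molecule, so each start comes with the end that its transcript used.

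The T2 libraries held 1668155 and 775322 yeast molecules, so that 5 CPM stood for 8.34 and 3.88 molecules. The other libraries held between 552357 and 1820826. The T2 replicates differed in more than depth: spans below 200 nt were found for 1.05% of the molecules in replicate 1 and 6.47% in replicate 2, against 0.400 to 4.12% in the other libraries. In every library some molecules of the spiked-in control RNAs began away from their main start. The main start was the most frequent position of a control in that library, and rests on few molecules for pGIBS-THR. Of the molecules of the spiked-in control RNA pGIBS-LYS, 25.3% and 37.4% in the T2 replicates started more than 100 nt from its main start. The other libraries ranged from 11.7 to 50.4%. For the control pGIBS-PHE the shares were 30.7% and 48.7% in T2 and 17.5 to 76.3% elsewhere. For pGIBS-THR, with 38 and 25 molecules in T2, they were 84.2% and 88.0%, against 66.7 to 97.3% elsewhere.

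Starts specific to T2 took up a large share of the T2 RNA. They held 39.3% and 29.3% of the molecules of the T2 replicates (mean 34.3 ± 7.09%, SD, n = 2), against 1.41% and 1.78% in pm, 2.34% and 2.28% in T1, and 1.44% and 1.14% in T3. The other T2 starts held 53.7% and 60.3% of the T2 libraries and between 80.9% and 88.4% of each of the others. The first T2 replicate thus put more of its molecules into T2-specific starts than the second, and in both replicates the 10 strongest bins alone gave 30.6% and 28.2% of the T2-specific total. A typical T2-specific start was much weaker. The median T2 level was 24.8 CPM, the middle 50% of bins lay between 12.8 and 61.0 CPM, and 60 bins reached 1000 CPM. By T2 level, 288 bins lay below 10 CPM, 1202 between 10 and 100 CPM, and 263 between 100 and 1000 CPM.

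**Figure D1:**
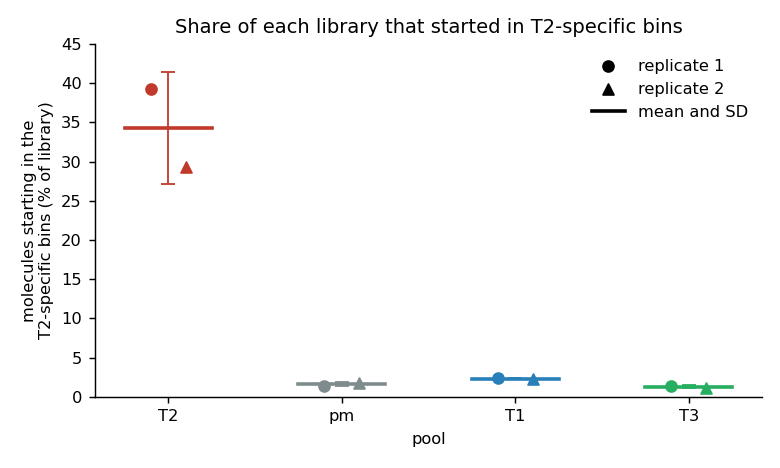
Share of each library's yeast molecules that started in the 1813 T2-specific bins, in percent, by stage. Points are the 2 replicates, lines their means and bars their SD. The T2 replicates lie at 39.3% and 29.3%, and the 6 libraries of pm, T1 and T3 between 1.14% and 2.34%.

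Most T2-specific bins had few or no molecules outside T2. In the pm libraries 1284 and 977 of them were at 0 molecules, in T1 535 and 761, and in T3 1239 and 1399. The stage that came closest to T2 was T1 for 1009 bins, pm for 348 and T3 for 162, while 294 bins had no molecule in any of the 6 other libraries. These 6 libraries held 6109200 molecules together, so 3 molecules, the limit that a count of 0 allows, corresponded to 0.491 CPM for counting error only. The median ratio of the T2 level to the highest other stage plus 1 CPM was 7.98. The ratio reached 10 in 734 bins, 30 in 249 and 100 in 70.

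The strongest bins were of more than one kind. The highest T2 level was that of chr04:714101-714200 (minus strand), with 22034 and 19211 CPM in T2, 3157 and 4575 CPM in pm, 3800 and 2715 CPM in T1, and 6865 and 4825 CPM in T3. It was thus an abundant start at every stage, and its ratio of 3.53 put it near the threshold of the rule. The next, chr11:267701-267800 (plus strand), was alike in this, at 12941 and 11782 CPM in T2, 1123 and 2098 CPM in pm, 1439 and 715 CPM in T1, and 853 and 912 CPM in T3. By contrast, chr05:400201-400300 (minus strand) had 9757 and 9145 CPM in T2, 13.2 and 16.0 CPM in pm, 17.6 and 26.0 CPM in T1, and 28.0 and 21.7 CPM in T3, a ratio of 365. It was a strong start in T2 only, and the same holds for the next 4. At chr04:540501-540600 (minus strand) the levels were 10294 and 5438 CPM in T2, 3.30 and 7.63 CPM in pm, 22.5 and 31.2 CPM in T1, and 19.8 and 1.81 CPM in T3. At chr15:716901-717000 (minus strand) they were 9220 and 5337 CPM in T2, 3.30 and 3.82 CPM in pm, 9.89 and 9.35 CPM in T1, and 28.0 and 3.62 CPM in T3. At chr16:302201-302300 (plus strand) they were 8016 and 3769 CPM in T2, 1.65 and 0 CPM in pm, 3.30 and 8.31 CPM in T1, and 8.17 and 1.81 CPM in T3. In these starts every T2 library was above every other library by more than 100-fold. The start at chr06:237401-237500 (minus strand) had 5622 and 7464 CPM in T2, 0 and 0.763 CPM in pm, 30.2 and 23.9 CPM in T1, and 73.5 and 16.3 CPM in T3. Another kind was already present in T1. The start at chr12:698101-698200 (plus strand) had 6803 and 4476 CPM in T2, 1.65 and 3.82 CPM in pm, 297 and 396 CPM in T1, and 7.0 and 0 CPM in T3. At chr04:985101-985200 (plus strand) the levels were 5645 and 11051 CPM in T2, 216 and 23.7 CPM in pm, 1444 and 1585 CPM in T1, and 32.7 and 16.3 CPM in T3.

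**Figure D2:**
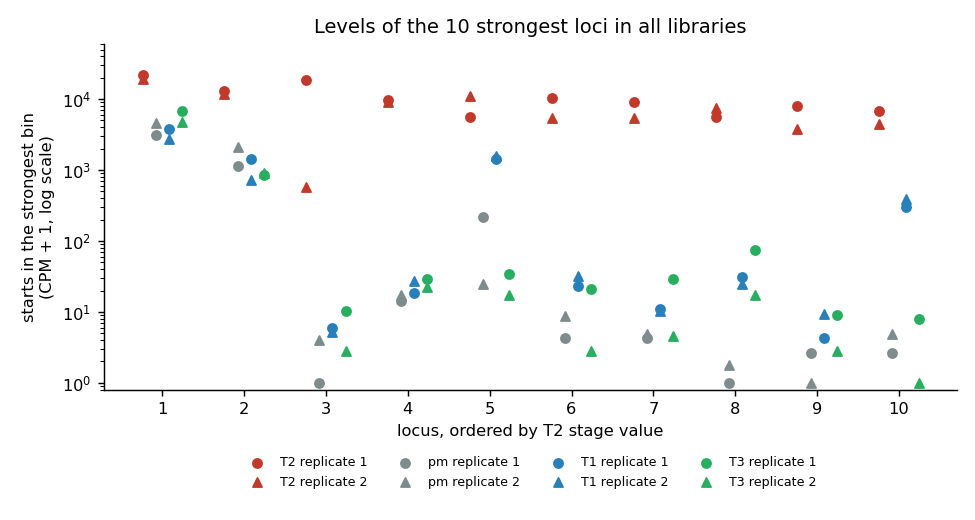
Level of the 10 strongest T2-specific loci in each of the 8 libraries, as CPM plus 1 on a log axis, with the stages in the order T2, pm, T1, T3 and 1 point per replicate. Locus 1, on chromosome 4, stands at 19211 CPM or more in T2 and at 2715 CPM or more in the other libraries, locus 3, at chr15:873301-873400, has its T2 replicates 33.1-fold apart, and locus 10, at chr12:698101-698200, stands at 297 and 396 CPM in T1.

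The largest ratio belonged to chr15:873301-873400 (minus strand), which had 18809 and 569 CPM in T2, 0 and 3.05 CPM in pm, 4.94 and 4.16 CPM in T1, and 9.34 and 1.81 CPM in T3. Its mean was 1474 times the highest other stage plus 1 CPM, but the T2 replicates were 33.1-fold apart, so its ratio was set by T2 replicate 1. Ratios of 866 at chr16:302201-302300, 672 at chr02:258101-258200 (minus strand), 514 at chr06:124601-124700 (plus strand) and 475 at chr10:354401-354500 (minus strand) followed. The start on chromosome 2 had 4579 and 2138 CPM in T2, 4.95 and 3.05 CPM in pm, 0.549 and 0 CPM in T1, and 7.0 and 0 CPM in T3. The start at chr06:124601-124700 had 1898 and 230 CPM in T2, 0 in both pm and both T3 libraries, and 1.1 and 1.04 CPM in T1. Both T2 libraries lay far above all others at each of these positions. Of the 294 bins with no molecule outside T2, the median T2 level was 13.2 CPM. The 3 strongest, chosen after their values were seen, were chr09:370801-370900 (minus strand) at 352 and 717 CPM in T2, chr15:760501-760600 (minus strand) at 692 and 54.2 CPM, and chr10:354501-354600 (minus strand) at 519 and 160 CPM. Against the limit of 3 molecules over the 6 libraries, the T2 mean of chr09:370801-370900 was at least 1089-fold higher.

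Levels ran on across the threshold of the rule without a gap. Just inside it, chr14:232601-232700 (plus strand) had 7.79 and 7.74 CPM in T2, 1.65 and 0 CPM in pm, 1.1 and 2.08 CPM in T1, and 0 in T3. Likewise inside, chr02:73701-73800 (minus strand) had 25.8 and 7.74 CPM in T2, 0 and 9.16 CPM in pm, 1.65 and 2.08 CPM in T1, and 0 in T3. Just outside it, chr13:192601-192700 (plus strand) had 22.8 and 15.5 CPM in T2, 1.65 and 9.16 CPM in pm, 6.59 and 1.04 CPM in T1, and 2.33 and 0 CPM in T3. The levels on either side of the threshold overlapped. The remaining edge bins were chr04:1471801-1471900 (plus strand) inside, and chr14:374901-375000 (plus strand) and chr05:318401-318500 (minus strand) outside, with T2 levels between 5.16 and 19.3 CPM.

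The spread between the T2 replicates was wider for T2-specific starts than for the others. The rule used both T2 values, so a bin raised in 1 replicate could enter the T2-specific set through it. This difference is therefore partly built in and is given as a description. Of the T2-specific bins, 171 were more than 4-fold higher in replicate 1 and 138 more than 4-fold higher in replicate 2, which is 17.0% together, against 8.17% of the other T2 starts. The SD of the log2 ratio of the replicates was 1.52 for T2-specific bins and 1.14 for other T2 starts. Counting error is small at the strongest bins, and there the gap was wider. At 100 CPM or more, 72 of 323 T2-specific bins were over 4-fold higher in replicate 1 and 31 in replicate 2 (31.9%), against 7.87% of 1068 other T2 starts. Over all bins at 100 CPM or more in a stage, replicates were over 4-fold apart in 13.4% of 1391 bins in T2, 9.43% of 1379 in pm, 0.0623% of 1605 in T1 and 0.407% of 984 in T3. Strong starts therefore repeated closely in T1 and T3, and less so in T2 and pm. The bins farthest apart, chosen after their values were seen, lay in runs: chr04:1072101-1072200 (minus strand) had 431 and 5.16 CPM in the T2 replicates, and its neighbours at chr04:1072001-1072100 and chr04:1071901-1072000 had 1447 and 37.4 CPM and 493 and 12.9 CPM. Whole loci thus stood apart between the replicates. Without T2 replicate 1, the rule applied to the remaining library chose 2869 bins, and without T2 replicate 2 it chose 2464.

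**Figure D3:**
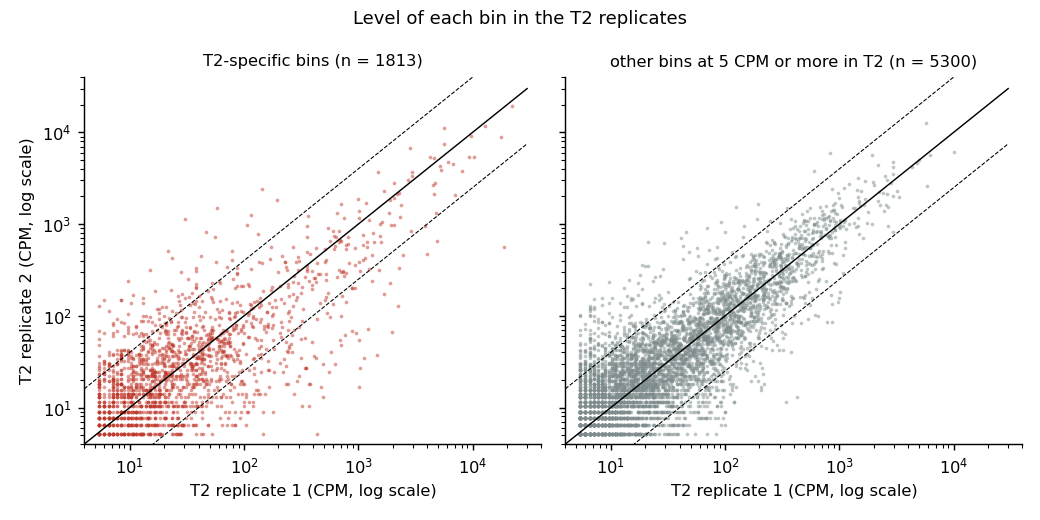
Level of each bin in T2 replicate 1 (x axis) and T2 replicate 2 (y axis), in CPM on log axes, for T2-specific bins on the left and other T2 starts on the right. Dashed lines mark a 4-fold gap, beyond which lie 17.0% of the T2-specific bins and 8.17% of the others.

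The comparisons of T1 with pm and of T3 with T1 ask what these starts did before T2 and on return to growth, and the rule set neither difference. Bins were fitted with limma over all 11405 bins that averaged at least 5 molecules per library, and were called at an adjusted p under 0.05 with at least a 2-fold change. With 2 replicates per stage, an exact permutation test of 1 value cannot give a p below 0.33, so the calls rest on a spread shared across bins. These comparisons and that of T2 with T1 share the T1 libraries. Of the T2-specific bins 1258 passed the filter, mostly through their T2 molecules, and many were near 0 in the libraries compared. A bin near 0 in both stages has little room to be called, and its fitted difference depends on the value added to 0. The shares called among T2-specific bins are therefore not read against those of all bins, and no median is given for them. Calls on few molecules did occur. An example chosen after its values were seen, chr08:165601-165700 (minus strand), had 3.30 and 4.58 CPM in pm and 0 in T1 and was called lower in T1.

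Between T1 and pm, 84 T2-specific bins were higher in T1 (6.68%) and 14 lower (1.11%), against 11.2% called higher and 9.73% called lower over all bins tested. Of the 98 T2-specific bins called, most were thus higher in T1. The other 1160 of the 1258 tested were not called, so this split gives no direction for the T2-specific set. At chr12:698101-698200 T1 was above pm by 6.32 ± 1.05 on the log2 scale (SE, limma adjusted p = 0.000552), and at chr04:985101-985200 by 4.19 ± 0.67 (limma adjusted p = 0.00038), although pm replicate 1 there stood well above pm replicate 2. At chr06:237401-237500 the difference was 4.47 ± 0.94 (limma adjusted p = 0.00304). The start with the clearest early rise, chosen after its values were seen, was chr15:777701-777800 (plus strand), which had 4686 and 2834 CPM in T2, 0 in both pm libraries, 96.1 and 155 CPM in T1, and 8.17 and 1.81 CPM in T3. Its T1 level was thus a small fraction of its T2 level and still stood apart from pm (7.35 ± 1.07, limma adjusted p = 0.000181). The count of 98 bins called changed with the libraries: it was 23 without pm replicate 2, 52 and 55 without T1 replicates 1 and 2, 65 without T3 replicate 1, and 179 and 181 without T2 replicates 1 and 2. In each of these fits rises outnumbered falls.

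Between T3 and T1, 28 T2-specific bins were higher in T3 (2.23%) and 68 lower (5.41%), against 14.2% called higher and 21.1% called lower over all bins tested. At chr12:698101-698200 T3 was below T1 by a log2 difference of -6.04 ± 1.07 (SE, limma adjusted p = 0.000345), and at chr04:985101-985200 by -4.99 ± 0.80 (limma adjusted p = 0.000146). Starts that had come up in T1 were thus among those that were low after the move to rich medium. At chr15:777701-777800 the difference was -3.62 ± 1.06 (limma adjusted p = 0.0134). In the other direction, the abundant start at chr04:714101-714200 was higher in T3 than in T1 by 1.78 ± 0.33 (limma adjusted p = 0.000568). Its mean CPM, 5845 in T3 and 3258 in T1, were less than 2-fold apart, so the size of this difference depended on the scaling. Scaling by the library total moved the median of all bins tested to -1.60, against -0.65 in the fit used, and the calls among T2-specific bins to 6 higher and 182 lower. The 96 calls became 48 and 52 without T1 replicates 1 and 2, 27 and 17 without T3 replicates 1 and 2, and 205 and 203 without T2 replicates 1 and 2.

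Many T2-specific bins were parts of 1 broader start or lay inside a stronger transcript. Joined where no more than 1 bin lay between them, the 1813 bins formed 907 loci, of which 545 were a single bin and the widest held 15. A bin was called inner when it lay between the start and the most used 3′ end of a stronger T2 bin on its strand, and outer otherwise. By this measure 822 T2-specific bins (45.3%) were inner, against 28.1% of the other T2 starts. Molecules broken inside a T2-specific transcript would follow its levels and so could meet the rule with it. The difference may thus be partly built in. Of the inner bins 716 lay inside a stronger T2-specific transcript, 106 inside one that was not T2-specific, and 261 were in the bin next to the stronger start. Their level was a median of 12.0% of that of the stronger start. Molecules of the spiked-in controls also began away from their main start. Inner bins may therefore hold true starts or broken molecules, and the part of each was not tested. The 991 outer bins held 35.6% and 26.1% of the T2 libraries, so most T2-specific molecules began at outer starts, and the description of transcripts is given for these.

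Transcripts from T2-specific outer starts were shorter than those from other T2 starts when each bin counted once. The median over bins of the genomic span from 5′ to 3′ end was 689 nt for T2-specific outer bins and 867 nt for the other outer bins. The middle 50% of bins lay between 483 and 946 nt for the T2-specific set and between 626 and 1107 nt for the others. Spans under 400 nt were found in 16.9% of the T2-specific outer bins, against 6.61% of the others, and spans under 1000 nt in 79.1%, against 64.1%. When each molecule counted once the gap was small: T2-specific outer starts gave medians of 873 and 777 nt in the T2 replicates, and the other outer starts 876 and 820 nt. Shorter transcripts were thus seen when bins were counted and hardly when molecules were. Molecules under 200 nt were 0.927% and 8.98% of those from T2-specific outer starts in the T2 replicates, against 0.449% and 3.26% of those from the other outer starts.

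Ends were also less uniform at T2-specific starts. Among bins with 20 or more molecules in both T2 replicates, the share of molecules that ended within 50 nt of the bin's most used 3′ end had a median of 84.2% and 77.0% over 488 T2-specific outer bins, against 93.8% and 91.2% over 2029 other outer bins. Fewer than 50% of molecules ended there in 96 and 113 of the T2-specific bins (19.7% and 23.2%), against 6.46% and 7.49% of the others. The number of molecules per bin was close in the compared sets, at medians of 158 and 72 for T2-specific bins and 150 and 71 for the others. Where the same start could be followed at another stage, T2 and T1 overlapped: over 121 T2-specific outer bins with 20 or more molecules in the T2 and T1 libraries, the median share was 91.0% and 86.4% in T2 and 87.8% and 89.8% in T1. Over 956 other outer bins deep enough in all 8 libraries it was 95.3% and 93.6% in T2 and between 91.7% and 95.0% in the others. The 5′ end was spread a little more as well, since the most used position held a median of 26.1% and 27.5% of the molecules of a T2-specific bin and 30.0% and 31.5% of those of the others.

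Single loci showed what these shares stand for. From chr11:267701-267800, 99.6% of T2 molecules ended at 1 site, with median spans of 866 and 864 nt in the T2 replicates, and from chr04:540501-540600 98.5% did, with spans of 769 and 771 nt. At these starts nearly all T2 molecules had the same end. From chr05:400201-400300 only 35.7% ended at the most used site, and the median span was 887 nt in T2 replicate 1 and 126 nt in replicate 2. Here the start repeated closely between replicates and the ends did not. More generally, 41 of the 488 T2-specific outer bins (8.40%) had a median span over 2-fold longer in T2 replicate 1 and 0 in replicate 2, against 58 and 0 of 2029 other outer bins (2.86%). Spans within 10% of each other were found in 78.1% of the T2-specific bins, against 93.1% of the others. The larger share of short molecules in T2 replicate 2 moved with this difference, and its part in it was not tested.

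**Figure D4:**
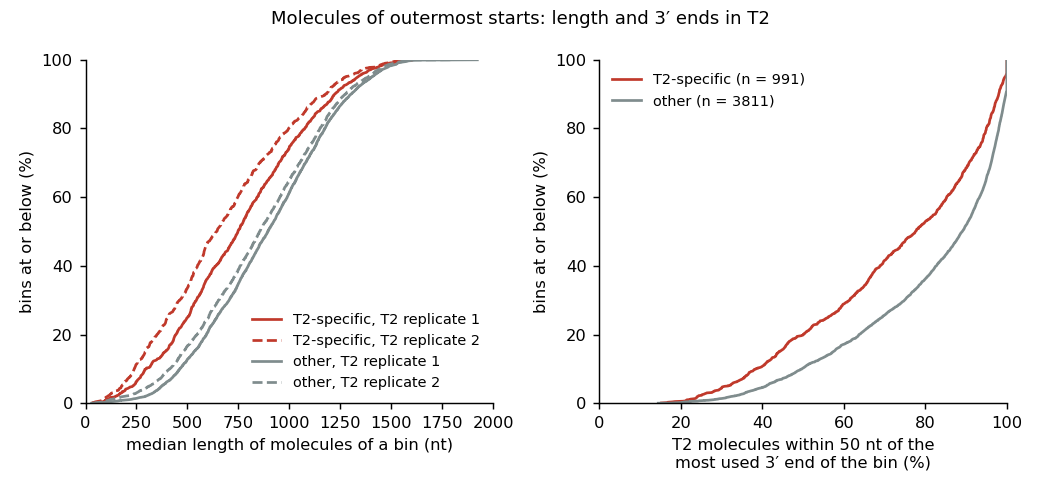
Left, cumulative share of outer bins by the median span of their molecules in nt, with a line for each T2 replicate; right, cumulative share of outer bins by the percent of molecules of both T2 replicates that end within 50 nt of the bin's most used 3′ end. All 991 T2-specific and 3811 other outer bins are drawn, and the T2-specific lines lie toward shorter spans and lower shares.

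Some T2-specific starts shared a 3′ end with a start that was used at other stages. Such a companion was a bin outside the rule, at least 200 nt from the T2-specific start on its strand, from which 10 or more molecules of the pm, T1 and T3 libraries ended within 50 nt of the T2-specific transcript's end. Companions were found for 231 of the 991 outer bins (23.3%). They were not searched for the other outer T2 starts, so this share is not read as a trait of T2-specific starts. The most used companion lay downstream for 151 of these, so that the T2-specific start gave the longer molecule, at a median distance of 300 nt, and upstream for 80, at a median of 400 nt. The 760 outer bins without a companion held 26.1% and 18.3% of the T2 libraries, and the 231 with one held 9.49% and 7.86%. Counting molecules of all libraries, T2 included, gave 499 outer bins with a companion, and the larger share of molecules then lay on the other side: these bins held 26.5% and 18.2% of the T2 libraries, and the 492 without a companion 9.14% and 7.92%. Which kind of start held most T2-specific molecules thus depended on the definition.

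More downstream companions were called higher in T2 than in T1 than lower. Of the bins that lay downstream of an outer T2-specific start 187 were tested, and 43 were called higher in T2 (23.0%) and 1 lower (0.535%), against 5.26% called higher and 3.50% called lower over the 10147 tested bins outside the rule. Their median log2 difference was 1.52, against -0.13 for the bins outside the rule, and the fitted value was above 0 for 157 of 187. Of 69 tested upstream companions 5 were called higher and 2 lower, with a median of -0.04, and the difference between downstream and upstream companions was not tested. A downstream companion lies inside the T2-specific transcript, where broken molecules of that transcript would also begin. In the T2 replicates 25.3% and 37.4% of the pGIBS-LYS molecules began over 100 nt from their main start. The shares were larger for pGIBS-PHE and pGIBS-THR. What broken molecules add to the downstream values was not tested. The filter on the mean also counts T2 molecules, and bins that met the rule themselves are not among the companions. Over all 422 tested companions of the wider definition, 101 were called higher and 6 lower, with a median of 1.5. Scaling by the library total gave 55 higher and 22 lower with a median of 0.69, and the upper quartile 60 higher and 18 lower with a median of 0.85. These 107 calls became 45 and 42 without T1 replicates 1 and 2, and rises stayed in the majority in every fit with a library left out.

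**Figure D5:**
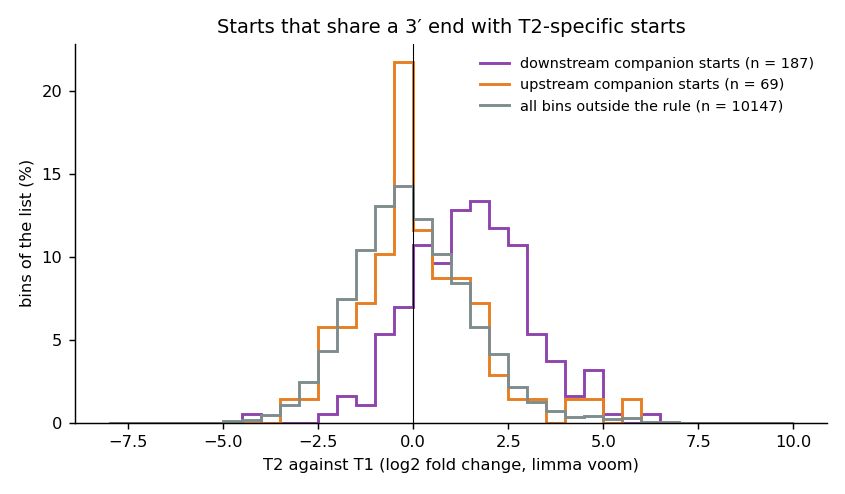
Share of bins by their fitted log2 difference of T2 from T1, for 187 companions downstream of an outer T2-specific start, 69 companions upstream and all 10147 tested bins outside the rule. The downstream companions have a median of 1.52, the upstream ones of -0.04 and all bins of -0.13.

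At some loci the start and its companion differed in order between T2 and T1. The rule chose starts that were high in T2 and low in T1 and left companions out, so a change of order is partly built in and is given as a description. The main downstream companion was below its T2-specific start in T2 for 112 of 151 and above it in T1 for 90 of 151. Of the companions that reached 5 CPM in T1, 36 were above the start in T1 and below it in T2. Examples chosen after their values were seen follow. The start at chr16:643401-643500 (plus strand) had 1041 and 308 CPM in T2, 1.65 and 3.82 CPM in pm, 11.5 and 14.5 CPM in T1, and 2.33 and 3.62 CPM in T3. Its companion at chr16:643601-643700, 200 nt downstream, had 101 and 98.0 CPM in T2, 252 and 378 CPM in pm, 25.3 and 16.6 CPM in T1, and 23.3 and 18.1 CPM in T3. Within this pair the companion was thus the higher one in pm and the T2-specific start the higher one in T2. The companion itself was lower in T1 than in pm (log2 difference -4.26 ± 0.65, limma adjusted p = 0.00026) and higher in T2 than in T1 (3.08 ± 0.69, limma adjusted p = 0.0035). The same order of start and companion was seen at chr12:697501-697600 (minus strand), with 652 and 264 CPM in T2, 11.5 and 12.2 CPM in pm, 8.79 and 6.23 CPM in T1, and 1.17 and 0 CPM in T3. Its companion 200 nt downstream, chr12:697301-697400, had 46.8 and 28.4 CPM in T2, 70.9 and 208 CPM in pm, 11.5 and 9.35 CPM in T1, and 2.33 and 3.62 CPM in T3. At both of these loci a bin between the start and its companion was stronger in T2 than the named start, and the companion lay inside its transcript. Next to chr16:643401-643500 this stronger bin did not meet the rule. The named start was thus not the strongest start there in T2, and the change of order holds for the named pair only. The single downstream companion called lower in T2 was chr13:402401-402500 (plus strand), with 0 and 2.58 CPM in T2, 3.30 and 3.05 CPM in pm, 21.4 and 44.7 CPM in T1, and 1.17 and 0 CPM in T3 (log2 difference -4.09 ± 0.97, limma adjusted p = 0.00559). It lay 300 nt inside the transcript of chr13:402101-402200, which had 141 and 133 CPM in T2, 0 and 0.763 CPM in pm, 3.30 and 6.23 CPM in T1, and 1.17 and 0 CPM in T3. There the inner start went down as the outer one came up, the reverse of the 43 downstream companions called higher.

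At the strongest loci the companions were minor. The start at chr04:714101-714200 had a companion 200 nt upstream, chr04:714301-714400, at 164 and 46.4 CPM in T2, 3.30 and 1.53 CPM in pm, 67.0 and 47.8 CPM in T1, and 3.50 and 5.43 CPM in T3. This upstream start was present in T2 and T1 and near 0 in pm and T3, and did not pass the test between T2 and T1 (1.51 ± 0.74, limma adjusted p = 0.177). The start at chr05:400201-400300 had one 1200 nt upstream, chr05:401401-401500, at 43.2 and 70.9 CPM in T2, 31.3 and 17.5 CPM in pm, 53.8 and 77.9 CPM in T1, and 9.34 and 9.05 CPM in T3 (0.65 ± 0.64, limma adjusted p = 0.534). The levels of this companion in T2 and T1 overlapped. The end it shared lay only 125 nt from the most used 5′ position of chr05:400201-400300. Of the T2 molecules of that start 35.7% ended there, so most did not share an end with the companion. Inside the transcript of chr15:873301-873400, the bin chr15:872601-872700, 700 nt downstream and a companion by the wider definition only, had 128 and 2.58 CPM in T2, 0 and 0.763 CPM in pm, and 0 in T1 and T3. It was called higher in T2 than in T1 (6.72 ± 1.44, limma adjusted p = 0.00251), and its T2 replicates were apart in the same direction as those of the start above it. Inside that of chr04:985101-985200, the companion chr04:985301-985400 had 24.6 and 61.9 CPM in T2, 1.65 and 0.763 CPM in pm, 20.3 and 10.4 CPM in T1, and 0 in T3 (2.16 ± 0.75, limma adjusted p = 0.0542).

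On the strand opposite a T2-specific transcript few bins could be tested. Of 2988 bins outside the rule that lay opposite, 219 passed the filter, and 28 were called higher in T2 than in T1 and 5 lower, with a median log2 difference of 0.96. The split turned with scaling, to 15 higher and 24 lower with the library total and to 17 higher and 21 lower with the upper quartile. The 33 calls became 11 and 18 without T1 replicates 1 and 2, and 50 without T2 replicate 2. No direction for opposite transcription is therefore given. The strongest locus without a companion and opposite to a called bin was chr07:1028701-1028800 (minus strand), with 1012 and 386 CPM in T2; the same interval on the plus strand had 27.6 and 1.29 CPM in T2 and 0 in all other libraries. The opposite start was thus weak and mainly in 1 replicate. At chr13:252501-252600 the plus-strand start had 94.7 and 112 CPM in T2 and 0 elsewhere, and the minus-strand bin had 7.19 and 32.2 CPM in T2, 1.65 and 0 CPM in pm, 0.549 and 1.04 CPM in T1, and 7.0 and 10.9 CPM in T3. At chr12:734401-734500 the minus-strand start had 86.9 and 37.4 CPM in T2, 0 and 4.58 CPM in pm, 2.75 and 6.23 CPM in T1, and 0 in T3. The plus-strand bin of the same interval had 3.00 and 6.45 CPM in T2, 21.4 and 14.5 CPM in pm, 0 and 1.04 CPM in T1, and 0 in T3, and so was highest in pm. The other named loci of this kind were chr15:929401-929500 and chr16:823401-823500 (both plus strand), at 75.5 and 46.4 CPM and at 75.5 and 37.4 CPM in T2.

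Divergent starts, which begin close together and run in opposite directions as from a shared promoter region, were common among T2-specific outer bins. An outer T2 start lay on the other strand within 500 nt upstream for 403 of 991 (40.7%), against 26.4% of the other outer bins. The partner was itself T2-specific for 270 (27.2%), against 4.30% of the other outer bins. T2-specific starts thus often stood beside each other on both strands, although each pair counts under both of its members and neighbouring bins share a promoter. An example chosen after its values were seen lies on chromosome 13, where chr13:381101-381200 (minus strand) had 673 and 851 CPM in T2, 239 and 125 CPM in pm, 78.0 and 135 CPM in T1, and 10.5 and 12.7 CPM in T3. Facing away from it, 300 nt on, chr13:381401-381500 (plus strand) had 1339 and 797 CPM in T2, 162 and 268 CPM in pm, 215 and 209 CPM in T1, and 36.2 and 23.5 CPM in T3. Both starts were highest in T2, present in pm and T1, and lowest in T3.

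T2-specific starts were spread over the whole genome. All 16 chromosomes held some, with 22 on chromosome 1 and 245 on chromosome 4, and they made up between 18.8% (chromosome 5) and 32.0% (chromosome 6) of the T2 starts of a chromosome. By strand, 50.6% were on the plus strand, against 49.0% of the other T2 starts. Within 20 kb of a chromosome end lay 22 of them (1.21%), against 1.87% of the other T2 starts.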

How the data were processed

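TIF-seq molecules were counted in 8 libraries of the SK1 strain FW2795. The authors prepared libraries by a TIF-seq2 protocol, mapped reads to an SK1 assembly that included spike-ins, retained unique pairs with both ends on 1 chromosome and converted them with bedtools. The submitters' notes name cutadapt 1.16, STAR 2.5.3a and bedtools. The deposited tables hold 1 line per molecule with its ends and a mapping quality score, which was not used as a measurement. No count column is given.

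From these lines 5′ ends were counted in 100-nt bins with Python 3.11.15, numpy 2.4.6 and pandas 2.3.3, and drawn with matplotlib 3.10.9. CPM is relative to all yeast molecules of a library. Molecules were not merged by identifier in the main counts. Bins with a mean of at least 5 molecules were fitted by limma 3.58.1 (voom, R 4.3.3), all 8 libraries together, with median-of-ratios scaling and Benjamini-Hochberg adjustment. Tests on simulated data covered the limma fit of T2 with T1, the rule, the most used 3′ ends and the search for downstream companions. The replicates are called independent, but separate cultures are not named, so p-values measure the spread between these samples. Limits given for counts of 0 cover counting error only.

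Named loci were the 10 of highest T2 level, the 5 of largest ratio, the 5 highest with a downstream companion, the 5 with an upstream one, the 5 without a companion and opposite to a called bin, their companions, and the 3 bins on each side of the fold threshold. Members, lists and rules were chosen with earlier results of these data known. Alternatives changed the bins, thresholds, scaling, filter, test, libraries and the molecules counted. No gene names are given, since no SK1 annotation was used here.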

Additional observations from a re-analysis of the deposited data

How the results depend on the processing

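The number of T2-specific bins was 1190 at 10 CPM, 991 outside stronger transcripts and 1787 to 2869 with a library left out. It was 2466 at 2 CPM, and 1341 and 2250 when at least 5 and 2 times were asked. With median-of-ratios scaling, which the limma fits used and the rule did not, it was 2236, with 1701 of the 1813 shared. The median molecule length did not move beyond the spread of its replicates in any alternative, and the bins with a companion numbered 1027, or 424 when companions had to be seen outside T2. This definition and the outer bins were chosen after seeing the data. Counting molecules of the same 5′ end and identifier once gave 1862 bins, 1790 of them shared, and leaving out molecules under 200 nt gave 1705, 1676 shared.

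With the library total, bins called between T2 and T1 numbered 2933 and turned to mostly lower, opposite bins 39, also mostly lower, and T2-specific bins between T3 and T1 188. Upper-quartile scaling gave 38 opposite bins, mostly lower. With a mean of at least 20 molecules the calls were 815, 1119 and 1975 over all bins for T2 with T1, T1 with pm and T3 with T1, 61 and 61 of T2-specific bins for T1 with pm and T3 with T1, 33 companions and 10 opposite bins. Without the filter they were 7163, 5170 and 14408 over all bins, the last 2 turned in majority (1900 higher and 3270 lower in T1, 11250 higher and 3158 lower in T3), with 175 T2-specific bins for T3 with T1, 567 companions and 396 opposite bins. Fits of only the stages compared called 148 T2-specific bins for T1 with pm, and for T3 with T1 266, with 6233 of all bins.

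With a library left out, calls ranged from 1104 to 2677 for T2 with T1, from 762 to 3283 for T1 with pm and from 1761 to 5155 for T3 with T1 over all bins, from 23 to 181 and from 17 to 205 for T2-specific bins in T1 with pm and T3 with T1, from 42 to 137 for companions and from 11 to 50 for opposite bins. The majority over all bins turned without pm replicate 1 (2185) or 2 (762) and without T3 replicate 1 (1761) or 2 (1791). Same-numbered samples did not deviate together (correlations of deviations from -0.26 to 0.10), so the numbers were not used to pair samples in the main fit. Such correlations cannot show whether same-numbered samples shared a culture. With the replicate block the counts were 1911, 2017 and 3674 over all bins for T2 with T1, T1 with pm and T3 with T1, 88 and 91 of T2-specific bins, 91 companions and 30 opposite bins, all within 1.5 times. Swapping the T1 numbers in the block gave 2212 bins for T2 with T1 and 2355 for T1 with pm. At 5 CPM a T2 level rested on 8.34 and 3.88 molecules, so weak T2-specific starts and values of 0 in the other libraries are limited by depth.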

Other observations

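The T2-specific bins included a few that gave very short molecules. In 19 of them the median span was under 100 nt and in 2 under 50 nt, against 19 and 3 of the 5300 other T2 starts. The clearest, chosen after its values were seen, was chr12:68001-68100 (plus strand), with a median span of 47 nt. It had 57.5 and 1501 CPM in T2, 417 and 61.8 CPM in pm, 17.0 and 9.35 CPM in T1, and 128 and 246 CPM in T3. Its replicates were far apart in T2 and in pm, in opposite directions, and it was higher in T3 than in T1 (log2 difference 4.64 ± 1.34, limma adjusted p = 0.0128).

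At chr14:263401-263500 (minus strand), also chosen after its values were seen, the T2 replicates had 4847 and 654 CPM, against 1.65 and 15.3 CPM in pm, 401 and 726 CPM in T1, and 4.67 and 1.81 CPM in T3. The second T2 replicate thus lay within the range of T1. The median span of its molecules was 981 nt in T2 replicate 1 and 226 nt in T2 replicate 2. T3 was below T1 there (log2 difference -6.13 ± 1.63, limma adjusted p = 0.00764).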
